A study of Rattus norvegicus with 30 samples.

Results

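Cytosolic aminoacyl-tRNA synthetases are the enzymes that load amino acids onto their transfer RNAs, and 10 of them were followed here in rat hepatocytes given clofibrate: Eprs1, Lars1, Mars1, Wars1, Yars1, Gars1, Aars1, Sars1, Nars1 and Tars1. The genes were taken from a fixed list of names, and every probe set whose single gene symbol was on that list was kept, which gave 17 probe sets. Where a gene had several, the probe set was chosen by its mean log2 signal over 30 arrays, the brightest being used, a choice that does not look at the treatments. The names themselves were listed with earlier results of these data known. All 10 listed genes had a probe set, and all 10 lay above the filter on low signal that left 10627 of 14217 named genes for testing. Their mean log2 signals ranged from 10.84 for Wars1 to 13.90 for Nars1, which are the 79.1 and 97.0 percentiles of all probe sets.

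Primary hepatocytes of male Sprague Dawley rats, bought frozen, were plated on collagen, overlaid with Matrigel and dosed on the third day. Clofibrate is a fibrate drug that lowers blood lipids and activates the nuclear receptor PPAR-alpha. The 6 treatment groups had 5 cultures each, 1 well and 1 array per culture: 1000 uM clofibrate for 48 h, 60 uM for 48 h, 1% DMSO vehicle for 48 h, 1000 uM for 24 h, 60 uM for 24 h and 1% DMSO for 24 h. The 1% is the labels' value for the vehicle wells, and they give no final DMSO level for the treated wells, so a difference in DMSO cannot be told apart from the drug in any effect below. The labels name separate cultures and no animals, so the p-values below measure the spread between wells and not between rats.

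A synthetase recognises 1 kind of amino acid and the matching tRNA and joins them with energy from ATP, and the charged tRNA then delivers the amino acid to the ribosome. The enzymes fall into class I (here Lars1, Mars1, Wars1 and Yars1) and class II (Gars1, Aars1, Sars1, Nars1 and Tars1), and Eprs1 carries an enzyme of each class in a single chain. Eprs1, Lars1 and Mars1 sit in the multisynthetase complex, which is held together by the scaffold proteins Aimp1, Aimp2 and Eef1e1. Many cytosolic synthetase genes are known targets of ATF4, the transcription factor of the amino acid response, which binds CCAAT-enhancer-binding protein and ATF response elements. Hepatocytes make large amounts of plasma protein and depend on a steady supply of charged tRNA.

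The promoters were searched for the 8 letters TGATGCAA, a core of such elements, on both strands from 250 bases before to 50 bases after the start of each gene, in RefSeq sequence of the GRCr8 build. An entry was found for 9 of the 10 listed genes, all but Gars1. The letters occurred in 5 of these 9 promoters, in 2 of 8 promoters of other cytosolic synthetases, and in 266 of all 33469 promoters of the same length, which is 0.795%. In the remaining 4 of the 9 the letters were not found in this window. The rule that picked the probe sets did not use the letters. The names, however, were listed with earlier results known, and many synthetase genes are known ATF4 targets, so these shares are descriptions only. Windows from 4 of the 5 listed promoters with the letters are shown. Each is 30 bases long, is read in the direction of its gene, and has TGATGCAA or its reverse complement TTGCATCA in capitals. Positions in the genome are given after each name.
Mars1, chr7:65023752-65023781, minus strand: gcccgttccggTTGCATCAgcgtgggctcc
Nars1, chr18:60275778-60275807, minus strand: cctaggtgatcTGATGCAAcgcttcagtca
Yars1, chr5:146820183-146820212, plus strand: cggagctacgagctcagcTGATGCAAcctg
Tars1, chr2:62114811-62114840, minus strand: ctggcgtcccgTTGCATCAgctggttagct
The first of the 8 letters lay at base -17 in Mars1, -14 in Nars1 and -27 in Tars1, counted back from the start, and at base 39 after it in Yars1. Both other promoters with the letters belong to Cars1 and Iars1, which charge cysteine and isoleucine tRNAs.
Cars1, chr1:208225334-208225363, minus strand: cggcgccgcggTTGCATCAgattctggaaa
Iars1, chr17:15193658-15193687, minus strand: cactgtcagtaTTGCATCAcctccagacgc
The looser pattern TGATGNAA, which includes TGATGCAA, was in the same number of listed promoters (5 of 9) and in 3.98% of all promoters. TGACGTCA was in 0 of 9 listed promoters against 1.83% of all, TGACGT, which lies inside it, in 1 of 9 against 7.94%, CACGTG in 2 of 9 against 6.42% and CCAAT in 7 of 9 against 37.5%. A match is a description of the letters and shows no binding.

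Correlations between arrays of a group lay between 0.964 and 0.979, and the lowest between groups was 0.930. The ratio of 3' to 5' probe sets, a sign of RNA quality, averaged 1.14 to 1.18 in the groups for Gapdh, and for beta-actin 2.48 with 1000 uM at 48 h against 2.33 with DMSO, and 2.56 with 1000 uM at 24 h against 2.42 with DMSO. The brightest TrpnX control, a bacterial sequence used here as a floor, had a mean log2 signal of 6.31 with 1000 uM at 48 h and 4.48 at 24 h, so that 80.8% to 82.0% of probe sets lay above it at 48 h and 93.6% to 94.4% at 24 h. All 10 synthetases lay far above these floors, and the part of floor and RNA quality in their values was not tested. Replicate 1 of DMSO at 48 h stood apart, with a residual SD of 0.336 against 0.243 to 0.297 on the other arrays. The values of the 10 synthetases by their brightest probe sets were also computed without each array in turn. All 7 hepatocyte markers on the array, albumin among them, were bright, with mean log2 signals of 13.81 to 16.34. Markers of other cell types were dimmer on the whole. Mean log2 signals were 4.19 for the bile duct keratin Krt7 and 10.18 for the stellate cell marker Acta2. The Kupffer cell marker Cd68 had 10.56, Lyz2 12.53 and Epcam 13.33. Krt7 lay under the floor in 6 groups, the stellate cell marker Lrat in 5 and the Kupffer cell marker Adgre1 in 4. Some of these markers were thus detected and others were not.

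With 1000 uM clofibrate the calls among the synthetases differed between the times. At 48 h 9 of the 10 genes were lower than in DMSO and 0 were higher, with a median log2 effect of -0.39 and a range of -0.54 to -0.19. At 24 h 4 genes were higher (Mars1, Yars1, Gars1 and Sars1) and 2 lower (Wars1 and Tars1), with a median of 0.09. A gene counts as changed where limma's adjusted p, by Benjamini-Hochberg over all 18625 probe sets tested, was under 0.05. Of all 10627 genes, 26.8% were lower and 17.1% higher at 48 h (43.9% in all), and 20.5% were lower and 13.4% higher at 24 h (33.9% in all), with a median of -0.06 at each time.

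**Figure D1:**
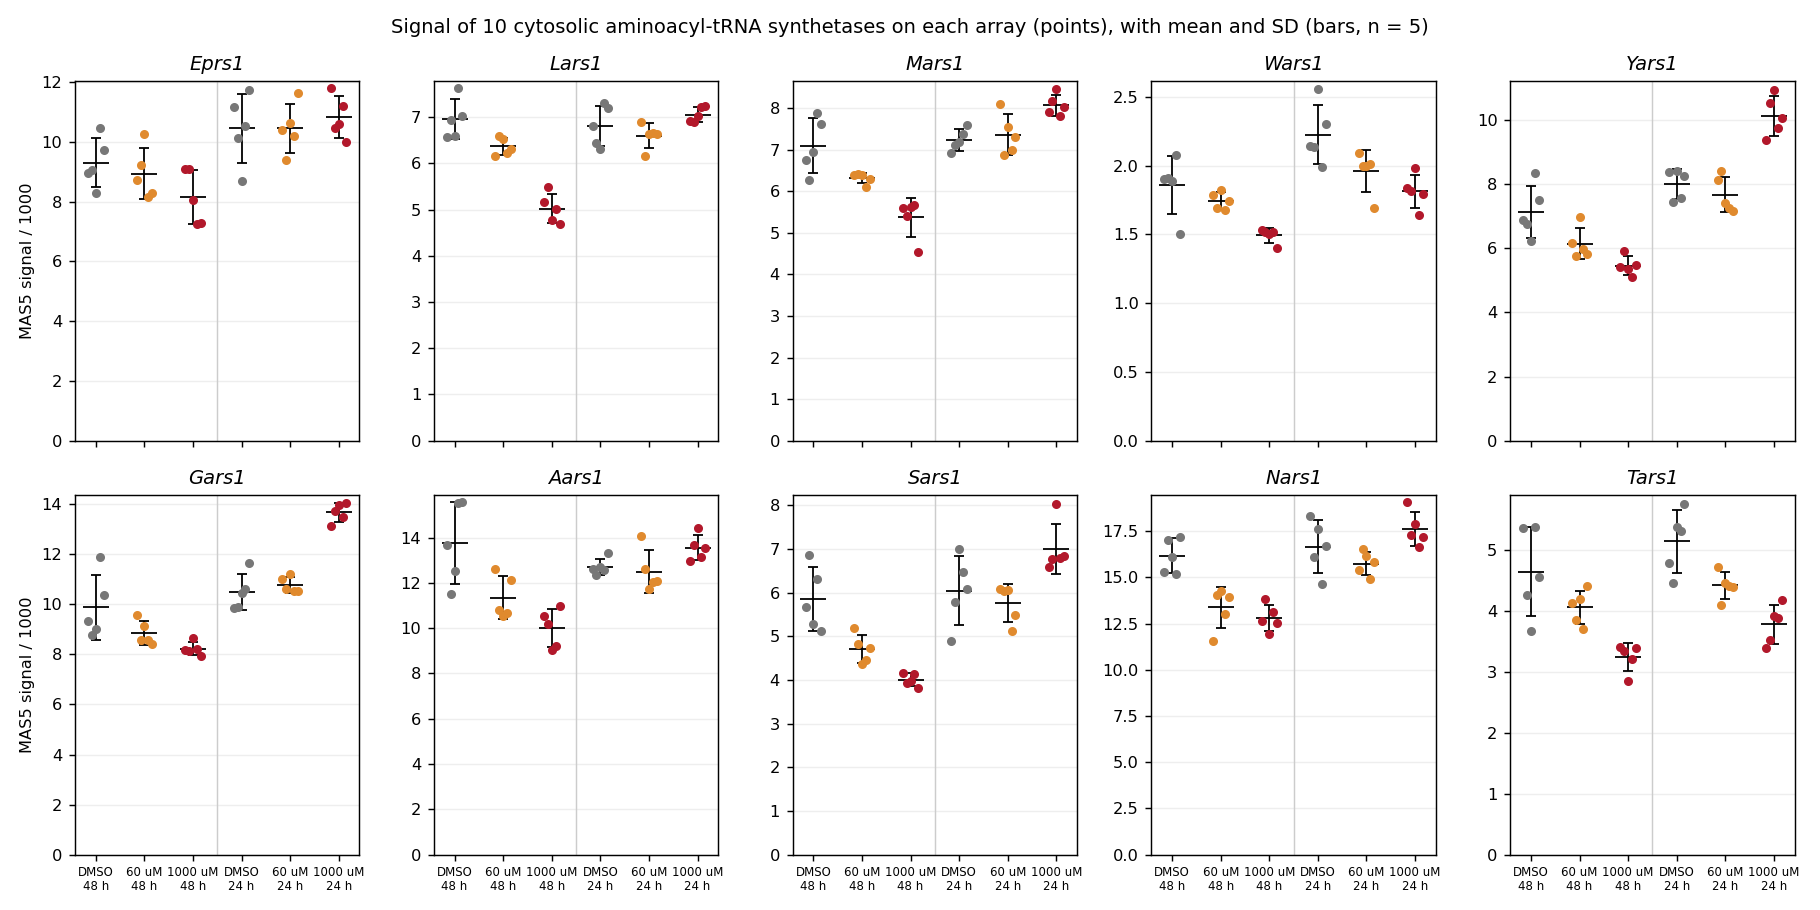
Signal of the 10 synthetases (MAS5 units divided by 1000, linear axis from 0) on each array (points), with the group mean and SD (bars, n = 5). The 48 h groups are on the left and the 24 h groups on the right of each panel, each in the order DMSO, 60 uM and 1000 uM. Gars1 averaged 8231 with 1000 uM at 48 h and 13681 at 24 h, whereas Tars1 was below DMSO at each time.

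The 3 members of the multisynthetase complex were all lower in mean at 48 h, and 2 of them passed. Lars1, which charges leucine tRNA, had signals of 4682, 4772, 5005, 5157 and 5485 with 1000 uM at 48 h, against 6567, 6598, 6948, 7033 and 7633 with DMSO. The groups did not overlap, and the log2 effect was -0.47 ± 0.05 (SE, n = 5 per group, limma adjusted p = 1.51e-09). At 24 h Lars1 had 6899, 6906, 7026, 7212 and 7238 with 1000 uM, against 6316, 6440, 6814, 7188 and 7304 with DMSO. The treated cultures at 24 h all lay within the range of DMSO (0.05 ± 0.05, limma adjusted p = 0.483).

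Mars1, which charges methionine tRNA, including the initiator tRNA that starts each protein, had signals of 4548, 5407, 5608, 5635 and 5672 with 1000 uM at 48 h, against 6283, 6754, 6949, 7621 and 7897 with DMSO. All 5 treated cultures lay below all 5 controls (-0.40 ± 0.06, limma adjusted p = 8.72e-07). At 24 h the order was turned, with 7807, 7919, 8040, 8168 and 8462 with 1000 uM against 6922, 7125, 7185, 7375 and 7592 with DMSO. The 24 h groups did not overlap either, and the effect was 0.16 ± 0.06 (limma adjusted p = 0.0382). This call is close to the threshold. It ended without replicate 1, 2 or 3 of DMSO at 24 h (adjusted p = 0.0900, 0.0704 and 0.0633) and without replicate 2, 3 or 5 of 1000 uM at 24 h (0.0665, 0.0933 and 0.0573).

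Eprs1, which charges glutamate and proline tRNAs, was the member that did not pass at 48 h. Its signals were 7262, 7288, 8066, 9087 and 9092 with 1000 uM, against 8301, 8947, 9063, 9740 and 10445 with DMSO (-0.19 ± 0.08, limma adjusted p = 0.0555). Only the 3 lowest treated cultures lay below all controls. Without replicate 1 or 2 of 1000 uM, or replicate 3 of DMSO, the effect was -0.23 and passed (limma adjusted p = 0.0267, 0.0265 and 0.0273). At 24 h Eprs1 averaged 10812 ± 703 with 1000 uM and 10446 ± 1160 with DMSO (SD, n = 5), an effect of 0.05 ± 0.08.

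The free class I enzymes are Yars1 and Wars1, and both were lower at 48 h. Yars1, which charges tyrosine tRNA, had signals of 5105, 5367, 5411, 5492 and 5924 with 1000 uM at 48 h, against 6242, 6761, 6874, 7501 and 8358 with DMSO (-0.38 ± 0.07, limma adjusted p = 1.49e-05). At 24 h it had 9374, 9757, 10069, 10534 and 10932 with 1000 uM, against 7454, 7563, 8261, 8373 and 8418 with DMSO. Every treated culture was above every control at 24 h and below every control at 48 h, and the 24 h effect was 0.34 ± 0.07, a gain of 26.4% (limma adjusted p = 0.000123).

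Wars1, which charges tryptophan tRNA and is known as an interferon-induced gene in human cells, was lower at each time. Its signals were 1401, 1502, 1514, 1519 and 1535 with 1000 uM at 48 h, against 1505, 1891, 1902, 1909 and 2080 with DMSO (-0.31 ± 0.08, limma adjusted p = 0.00164). At 24 h they were 1644, 1794, 1818, 1841 and 1980 with 1000 uM, against 1988, 2139, 2146, 2300 and 2558 with DMSO (-0.29 ± 0.08, limma adjusted p = 0.00349). The groups did not overlap at 24 h, whereas at 48 h the lowest DMSO culture fell among the treated ones. The 48 h call rests on the brighter probe set. The dimmer Wars1 probe set gave 0.12 ± 0.11 at 48 h and -0.09 ± 0.11 at 24 h, neither of which passed.

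The class II enzymes included the strongest rise at 24 h. Gars1, which charges glycine tRNA, had signals of 13123, 13480, 13744, 13991 and 14066 with 1000 uM at 24 h, against 9866, 9885, 10459, 10634 and 11659 with DMSO. The lowest treated culture was above the highest control, and the effect was 0.38 ± 0.06, a gain of 30.5% (limma adjusted p = 3.33e-06). At 48 h the signals were 7938, 8145, 8196, 8199 and 8676 with 1000 uM, against 8763, 9032, 9318, 10391 and 11891 with DMSO. All 5 treated cultures were then below all controls, with an effect of -0.25 ± 0.06 (limma adjusted p = 0.000690).

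Sars1, which charges serine tRNA and the selenocysteine tRNA, had the largest fall of the 10 at 48 h. Its signals were 3821, 3919, 3970, 4139 and 4166 with 1000 uM, against 5128, 5270, 5675, 6298 and 6865 with DMSO, a fall of 0.54 ± 0.08 on the log2 scale (-31.2%, limma adjusted p = 1.39e-06). The highest treated culture was well below the lowest control. At 24 h it had 6581, 6764, 6779, 6833 and 8022 with 1000 uM, against 4889, 5779, 6079, 6464 and 7004 with DMSO (0.22 ± 0.08, limma adjusted p = 0.0385). These 24 h groups overlapped, and 1 treated culture lay above all controls. The 24 h call ended without replicate 1, 2 or 5 of DMSO at 24 h (adjusted p = 0.175, 0.0791 and 0.0530) and without replicate 3 or 5 of 1000 uM at 24 h (0.138 and 0.0509).

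Aars1 and Nars1, which charge alanine and asparagine tRNAs, fell at 48 h and did not pass at 24 h. Aars1 had signals of 9049, 9217, 10161, 10554 and 10976 with 1000 uM at 48 h, against 11491, 12522, 13672, 15514 and 15554 with DMSO (-0.45 ± 0.07, limma adjusted p = 2.26e-06). Nars1 had 11923, 12532, 12663, 13114 and 13819 with 1000 uM at 48 h, against 15199, 15318, 16113, 17044 and 17211 with DMSO (-0.34 ± 0.06, limma adjusted p = 1.52e-05). Neither pair of groups overlapped. At 24 h Aars1 averaged 13556 ± 563 with 1000 uM and 12703 ± 364 with DMSO (SD, n = 5), an effect of 0.09 ± 0.07, and Nars1 averaged 17618 ± 938 with 1000 uM and 16670 ± 1427 with DMSO, an effect of 0.08 ± 0.06.

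Tars1, which charges threonine tRNA, was lower at each time. Its signals were 2854, 3217, 3340, 3386 and 3414 with 1000 uM at 48 h, against 3677, 4269, 4554, 5371 and 5375 with DMSO (-0.51 ± 0.08, limma adjusted p = 8.26e-06). At 24 h they were 3388, 3519, 3885, 3922 and 4189 with 1000 uM, against 4469, 4791, 5314, 5388 and 5762 with DMSO (-0.44 ± 0.08, limma adjusted p = 8.87e-05). Treated and control cultures were separate at each time. Counted over the members, all 5 treated cultures were below all 5 controls for 8 of 10 genes at 48 h, all but Eprs1 and Wars1, as for 19.0% of all genes. At 24 h all 5 were above for 3 (Mars1, Yars1 and Gars1), as for 10.4% of all genes, and all 5 below for 2 (Wars1 and Tars1), as for 15.0%. In such bulk samples fewer cells of a type and less RNA per cell cannot be told apart.

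**Figure D2:**
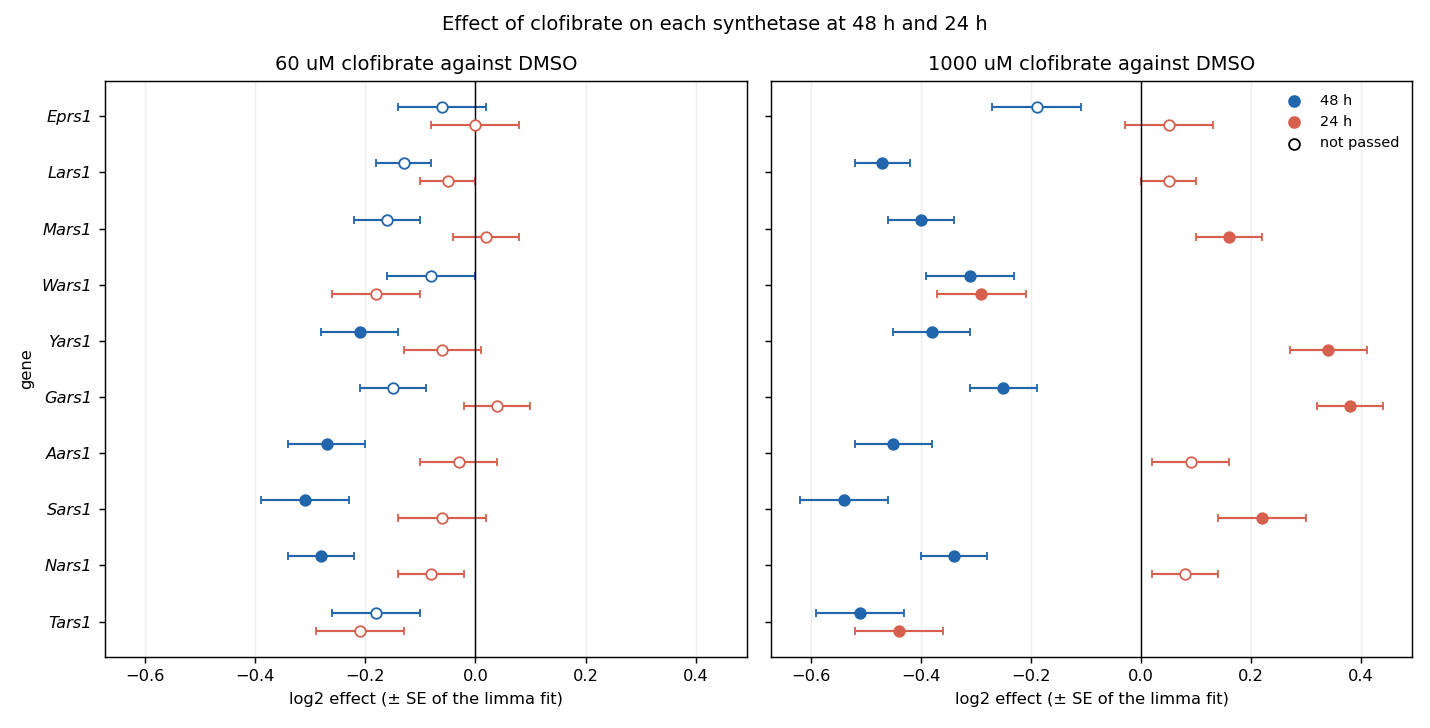
Log2 effect of 60 uM (left) and 1000 uM (right) clofibrate against DMSO for each synthetase at 48 h (blue) and 24 h (red), with the SE of the limma fit; open circles did not pass. At 1000 uM the 48 h effects lie between -0.54 and -0.19 and the 24 h effects between -0.44 and 0.38.

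The difference between the times was tested directly, as the 1000 uM effect at 48 h with that at 24 h taken away. It was negative in all 10 genes under the deposited scaling, median centring and spike-in scaling, and passed in 7, all lower, where 10.8% of all genes passed (5.54% lower and 5.27% higher). The median over the members was -0.54 and over all genes -0.01. Sars1 had -0.76 ± 0.11 (limma adjusted p = 1.94e-05), Yars1 -0.72 ± 0.09 (2.02e-06), Gars1 -0.64 ± 0.08 (2.31e-06) and Mars1 -0.56 ± 0.08 (1.47e-05). Aars1 had -0.55 ± 0.10 (limma adjusted p = 0.000251), Lars1 -0.52 ± 0.07 (3.18e-06) and Nars1 -0.42 ± 0.08 (0.000724). These 7 enzymes charge serine, tyrosine, glycine, methionine, alanine, leucine and asparagine tRNAs and include members of each class. Eprs1 had -0.25 ± 0.11 (limma adjusted p = 0.204), Tars1 -0.07 ± 0.12 (0.840) and Wars1 -0.01 ± 0.11 (0.970), so no difference between times passed for these 3. The 95% interval of the difference was -0.47 to -0.02 for Eprs1, -0.31 to 0.18 for Tars1 and -0.24 to 0.21 for Wars1. Mars1, Yars1, Gars1 and Sars1 passed as higher at 24 h and lower at 48 h, as did 26 of all 10627 genes (0.245%).

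At 60 uM the 24 h cultures gave no call: 0 of 10 genes passed, with effects from -0.21 to 0.04, where 8.32% of all genes passed (3.76% lower and 4.55% higher). The lowest were Tars1 at -0.21 ± 0.08 and Wars1 at -0.18 ± 0.08, whose unadjusted p-values in the limma fit were 0.0161 and 0.0233. An unadjusted p under 0.05 was reached by these 2 of 10 and by 19.9% of all genes (10.7% lower). At 48 h all 10 effects of 60 uM were negative, with a median of -0.17 against -0.01 over all genes, and 4 of 10 passed, where 5.79% of all genes were lower, 5.70% higher and 11.5% passed in all. Nars1 had 11561, 13039, 13922, 14074 and 14287 with 60 uM, against the 15199 to 17211 with DMSO, with no overlap (-0.28 ± 0.06, limma adjusted p = 0.00116). It was the only member whose 5 cultures with 60 uM lay below all controls, as in 5.02% of all genes.

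The other 3 that passed at 60 uM and 48 h overlapped the controls. Sars1 had 4360, 4464, 4719, 4822 and 5176 with 60 uM, against 5128 to 6865 with DMSO (-0.31 ± 0.08, limma adjusted p = 0.0103). Aars1 had 10540, 10656, 10790, 12119 and 12607, against 11491 to 15554 with DMSO (-0.27 ± 0.07, 0.00867). Yars1 had 5777, 5826, 5982, 6159 and 6972, against 6242 to 8358 with DMSO (-0.21 ± 0.07, 0.0339). In each gene the upper treated cultures reached into the range of DMSO. The Sars1 call ended without replicate 2 of DMSO at 48 h (adjusted p = 0.0520). The Yars1 call ended without replicate 4 or 5 of DMSO at 48 h (adjusted p = 0.140 and 0.0847) and without replicate 1, 2, 4 or 5 of 60 uM at 48 h (0.0550, 0.0955, 0.0738 and 0.0862). Without replicate 2 of DMSO at 48 h Gars1 (-0.19, adjusted p = 0.0416) and Mars1 (-0.21, 0.0214) passed, and without replicate 3 Tars1 passed (-0.26, 0.0318). The difference between the times at 60 uM passed in 0 of 10 genes, with a median of -0.17, and in 0.151% of all genes (0.0847% lower and 0.0659% higher). At an unadjusted limma p under 0.05, as for 8.26% of all genes (4.12% lower), it was lower in 5 of the 10: Gars1 (0.0290), Mars1 (0.0302), Aars1 (0.0178), Sars1 (0.0390) and Nars1 (0.0213).

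The doses were also set against each other. At 48 h 1000 uM was lower than 60 uM in 5 of 10 genes, where 30.5% of all genes passed (18.5% lower and 11.9% higher). Lars1 differed by -0.34 ± 0.05 (limma adjusted p = 1.43e-06), Tars1 by -0.32 ± 0.08 (0.00362), Mars1 by -0.24 ± 0.06 (0.00200), Sars1 by -0.23 ± 0.08 (0.0300) and Wars1 by -0.22 ± 0.08 (0.0291). The Sars1 call at 48 h ended without replicate 1, 2 or 5 of 60 uM (adjusted p = 0.0885, 0.0601 and 0.0505) and without replicate 2, 3 or 5 of 1000 uM (0.0572, 0.0526 and 0.0675). The Wars1 call ended without replicate 1 or 3 of 60 uM (adjusted p = 0.0547 and 0.0677) and without replicate 5 of 1000 uM (0.0747). Both also ended with median centring (Sars1 -0.18 and Wars1 -0.17) and quantile normalization (-0.21 and -0.17). Nars1, at -0.06 ± 0.06 with a 95% interval of -0.18 to 0.06, showed the smallest step between the doses. At 24 h 1000 uM was higher than 60 uM in 3 of 10, where 21.6% passed (8.75% higher and 12.8% lower): Yars1 by 0.40 ± 0.07 (limma adjusted p = 2.02e-05), Gars1 by 0.34 ± 0.06 (3.89e-05) and Sars1 by 0.28 ± 0.08 (0.0111). The Sars1 value at 24 h was 0.23 without replicate 3 of 1000 uM (adjusted p = 0.0516).

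Time in culture alone was read from the DMSO cultures. Between those at 48 h and 24 h 1 of 10 genes passed, close to the share of all genes, where 8.85% passed (3.75% lower and 5.10% higher). Wars1 had 1505 to 2080 at 48 h, against 1988 to 2558 at 24 h (-0.26 ± 0.08, limma adjusted p = 0.0298). This call ended without replicate 3 or 5 of DMSO at 24 h (adjusted p = 0.112 and 0.0672) and without replicate 5 at 48 h (0.120). Without replicate 4 of DMSO at 48 h Gars1 (-0.16, adjusted p = 0.0481) and Yars1 (-0.23, 0.0234) passed too. The signs of Gars1, Mars1, Sars1 and Nars1, from -0.09 to -0.03 as deposited, turned with spike-in scaling, to 0.06 to 0.12, whereas Eprs1 and Yars1 stayed negative and Aars1 positive under all scalings.

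Of the 10 genes 5 had more than 1 probe set, which gave 6 pairs of a brightest and a further probe set above the filter. For 1000 uM at 48 h both passed the same way in 3 pairs, and 1 passed alone in 1 pair, that of Wars1. The dimmer Gars1 probe set gave -0.21 ± 0.08 at 48 h and 0.46 ± 0.08 at 24 h, and the dimmer Mars1 probe set gave -0.44 ± 0.13 and 0.21 ± 0.13, the 24 h value not passing. The dimmer Lars1 probe set gave -0.80 ± 0.24 at 48 h. For the time difference at 1000 uM both passed in 2 pairs, those of Gars1 and Mars1. The dimmer Lars1 probe set did not pass there (-0.87 ± 0.33, limma adjusted p = 0.113). In 1000 uM against 60 uM at 48 h the dimmer probe sets of Mars1 (-0.04 ± 0.13) and Lars1 (-0.50 ± 0.24) did not pass. With the mean of its probe sets Mars1 had -0.14 there (limma adjusted p = 0.211). The probe sets of Eprs1 gave -0.33 ± 0.15 and -0.43 ± 0.22 at 48 h, neither passing, and its dimmest lay below the filter. Only Wars1 had a pair that passed in opposite directions, in 1000 uM against 60 uM at 48 h (-0.22 ± 0.08 and 0.37 ± 0.11).

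The rest of the tRNA charging machinery was read from lists of genes. Of 9 other cytosolic synthetases on the array, 7 were lower with 1000 uM at 48 h and 0 higher, with a median of -0.25, and at 24 h 1 was lower. Vars1, which charges valine tRNA, had the largest effect at 48 h, -0.74 ± 0.14, followed by Iars1 at -0.69 ± 0.06, Cars1 at -0.33 ± 0.07 and Rars1, which charges arginine tRNA, at -0.29 ± 0.05. The difference between the times passed in 3 of these 9, Iars1 (-0.56 ± 0.08), Cars1 (-0.41 ± 0.09) and Rars1 (-0.29 ± 0.07). All 3 scaffolds of the multisynthetase complex were lower at 48 h, Eef1e1 by -0.55 ± 0.05, Aimp2 by -0.52 ± 0.05 and Aimp1 by -0.37 ± 0.06. The time difference passed in all 3 scaffolds, from -0.47 to -0.38. For comparison, 26.8% of all genes were lower at 48 h and 20.5% at 24 h, and the time difference was lower in 5.54%.

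Mitochondrial synthetases charge tRNA inside that organelle, and 12 were tested. With 1000 uM at 48 h 2 were higher (Iars2 by 0.42 ± 0.09 and Rars2 by 0.15 ± 0.06) and 1 lower (Yars2, -0.29 ± 0.06). Their median was 0.13. Of all genes 17.1% were higher and 26.8% lower. Limma's unadjusted p was under 0.05 in 7 of 12 at 48 h. At 24 h 0 passed, where 33.9% of all genes did, and limma's unadjusted p was under 0.05 in 0 of 12. The time difference passed in 1 of 12, Iars2, at 0.51 ± 0.12, near the 10.8% of all genes. Of 5 elongation factors, 1 was higher (Eef1b2, 0.24 ± 0.06) and 2 lower (Eef2, -0.30 ± 0.05, and Eef1d, -0.21 ± 0.06) at 48 h, and the limma time difference passed in 0 of 5 (1 at an unadjusted p under 0.05). Of 4 genes of tRNA export and of editing of wrongly charged tRNA, Dtd1 was lower at each time (-0.38 ± 0.06 at 48 h and -0.28 ± 0.06 at 24 h), the tRNA exporter Xpot was higher at 24 h (0.36 ± 0.10) and Aarsd1 higher at 48 h (0.25 ± 0.09).

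**Figure D3:**
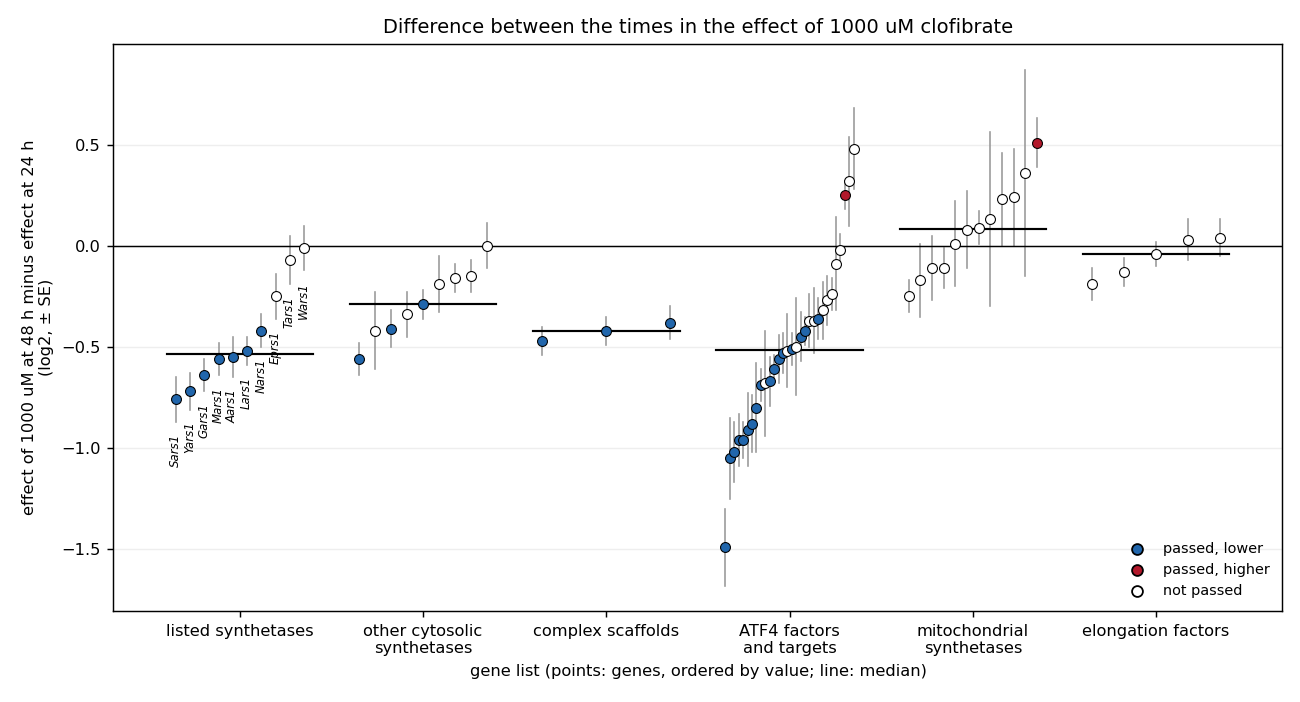
Difference between the times in the effect of 1000 uM clofibrate (48 h minus 24 h, log2 ± SE), by gene list, with each list's median as a line; filled points passed. The listed synthetases lie between -0.76 and -0.01 with 7 of 10 lower, and the mitochondrial synthetases have a median of 0.09 with 1 of 12 higher.

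Transcripts of the ATF4 pathway were measured beside those of the enzymes. Of 30 ATF4 factors and target genes other than synthetases, 14 were higher and 4 lower with 1000 uM at 24 h (median 0.20), and 3 were higher and 14 lower at 48 h (median -0.27). The shares of all genes were 13.4% higher and 20.5% lower at 24 h, and 17.1% higher and 26.8% lower at 48 h. The time difference passed downward in 17 of 30 and upward in 1, with a median of -0.52, where 5.54% of all genes passed downward and 5.27% upward. The largest effects at 48 h were those of the cationic amino acid transporter Slc7a1 (-1.65 ± 0.11), the mitochondrial folate enzyme Mthfd2 (-1.22 ± 0.14), the cystine transporter Slc7a11 (-1.18 ± 0.10) and Chac1, which degrades glutathione (-1.14 ± 0.13). Of 7 genes for eIF2, its kinases and its phosphatase subunits, 3 were lower at 48 h: Ppp1r15a (-0.64 ± 0.08), Eif2ak3, the kinase PERK (-0.57 ± 0.10), and Ppp1r15b (-0.28 ± 0.05). At 24 h Eif2ak3 (-0.56 ± 0.10) and Ppp1r15a (-0.26 ± 0.08) were lower. These counts among 7 genes are not far from the shares of all genes, 26.8% lower at 48 h and 20.5% at 24 h. The time difference passed upward in 1, Eif2ak4, the kinase GCN2 that senses uncharged tRNA, at 0.61 ± 0.19 (limma adjusted p = 0.0443), and downward in Ppp1r15a (-0.38 ± 0.12). Eif2ak4 is named after its values were seen, and its effects of 0.26 ± 0.14 at 48 h and -0.35 ± 0.14 at 24 h did not pass.

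The 10 profiles moved together over the 30 arrays, with a correlation of each gene with the mean of the other 9 from 0.564 for Tars1 and 0.669 for Wars1 to 0.926 for Mars1. Among 10504 other genes, the 5 most like the mean member profile were Atf4 (Pearson r = 0.956 over 30 arrays), the glycine transporter Slc6a9 (0.930), Tmem147 (0.911), the plasma protease inhibitor A2m (0.907) and Slc3a2 (0.905), the heavy chain of several amino acid transporters. Not all related genes followed this profile. Over the ATF4 factors and target genes r ran from -0.524 (Shmt2) to 0.956 (Atf4). Over the other cytosolic synthetases it ran from 0.245 (Hars1) to 0.867 (Rars1). These are descriptions over arrays that share their groups and scaling. With 1000 uM Atf4 had -0.54 ± 0.05 at 48 h (limma adjusted p = 2.63e-10) and 0.07 ± 0.05 at 24 h (0.326), and its time difference was -0.61 ± 0.07 (6.20e-07). Slc6a9 and Tmem147 had -0.66 ± 0.08 and -0.43 ± 0.06 at 48 h, with 0.08 ± 0.08 and 0.09 ± 0.06 at 24 h. A2m was lower at each time (-1.82 ± 0.06 at 48 h and -0.36 ± 0.06 at 24 h), whereas Slc3a2 was lower at 48 h (-0.26 ± 0.05) and higher at 24 h (0.26 ± 0.05).

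Some markers of other cell types moved with the high dose as well. The summed signal of 8 Kupffer cell markers lay at 6658 to 7537 with 1000 uM at 48 h, against 9705 to 11164 with DMSO, and at 8599 to 10393 with 1000 uM at 24 h, against 11539 to 13233 with DMSO. Lyz2 is by far the brightest of them. Of the 6 tested, 2 were lower at 48 h, Lyz2 (-0.85 ± 0.08) and C1qb (-1.86 ± 0.32), and 1 at 24 h, Lyz2 (-0.59 ± 0.08), and the other 4 (Cd68, Clec4f, C1qa and Cd5l) had 48 h values of -0.08 to 0.38 that did not pass. The list's median was -0.06 at 48 h and -0.10 at 24 h. The shares of all genes, for these and the other marker counts, were 26.8% lower and 17.1% higher at 48 h. At 24 h they were 20.5% lower and 13.4% higher, and the Kupffer cell counts are near these shares. Of 7 hepatocyte markers, 4 were lower at 48 h, led by the tyrosine aminotransferase Tat (-1.31 ± 0.08) and the fibrinogen gene Fgb (-0.82 ± 0.06), and 6 at 24 h. Their summed signal was 384585 to 403500 with 1000 uM at 48 h against 438640 to 525482 with DMSO, and 402640 to 448848 with 1000 uM at 24 h against 484970 to 545393 with DMSO. Epcam, the single bile duct marker of 4 above the filter, was lower at each time (-0.43 ± 0.05 at 48 h and -0.44 ± 0.05 at 24 h). Of 5 stellate cell markers tested, Acta2 was lower at each time (-0.49 ± 0.13 at 48 h and -0.56 ± 0.13 at 24 h), and the other 4 did not pass, with 48 h values of 0.64 for Col1a1, 0.29 for Des, 0.25 for Rgs5 and 0.10 for Col3a1 and a list median of 0.25. Of 4 endothelial markers, Pecam1 was higher at 48 h (0.70 ± 0.26), and Kdr (-0.19), Lyve1 (-0.08) and Tek (0.03) did not pass, with a list median of -0.02. The summed signals of stellate cell markers overlapped between 1000 uM and DMSO at each time (3580 to 4364 against 3586 to 4326 at 48 h), as did those of endothelial markers (1907 to 2076 against 1365 to 2123 at 48 h). All 4 lymphoid markers lay below the filter. The part of these markers in the synthetase values was not tested.

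Scaling sets where 0 lies, and the arrays were therefore also scaled to the 24 poly-A spike-in probe sets, whose RNA is added to each sample. That moved the median effect over all probe sets to 0.12, against -0.04 as deposited, for 1000 uM at 48 h, and to 0.18, against -0.05, at 24 h. All 10 synthetases stayed negative at 48 h under each of the 4 scalings, from -0.38 for Sars1 to -0.03 for Eprs1 with the spike-ins, and 5 passed there: Mars1, Aars1, Sars1, Lars1 and Tars1. At 24 h 7 were then higher and 0 lower, with Gars1 at 0.61, Yars1 at 0.57, Sars1 at 0.44 and Mars1 at 0.39, and Wars1 (-0.06) and Tars1 (-0.22) no longer passed. The difference between the times passed in the same 7 genes with each scaling. Over all probe sets 1000 uM at 48 h gave 2835 higher and 4219 lower as deposited, 3482 and 3321 with median centring, and 4017 and 1848 with the spike-ins. At 24 h it gave 2144 and 3241 as deposited, 2736 and 2377 with median centring, and 4443 and 958 with the spike-ins.

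**Figure D4:**
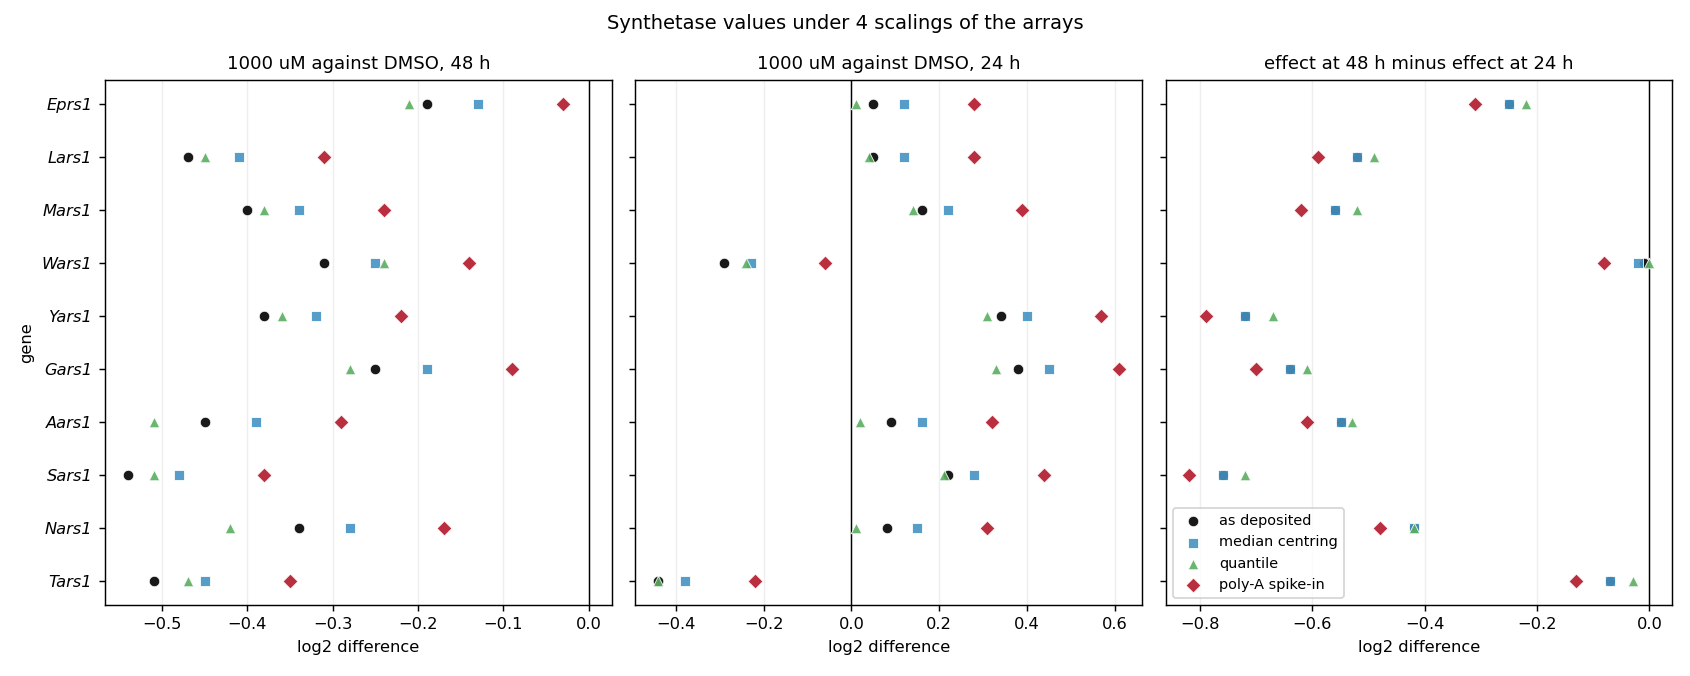
Values of the 10 synthetases under 4 scalings of the arrays: 1000 uM against DMSO at 48 h (left) and 24 h (middle), and the difference between these effects, 48 h minus 24 h (right), all as log2 differences. The spike-in values at 48 h lie to the right of the deposited ones, up to -0.03, and those at 24 h reach 0.61.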

How the data were processed

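Biotin-labelled RNA from 30 hepatocyte cultures was run on rat genome arrays, 1 for each culture, per the labels' protocols. The deposited values are probe set intensities (signals), linear in scale, which the authors made with MAS5, per the submitters' processing notes, in a version that no source used here gives. With the top and bottom 2% left out, every array has a mean of 1501, so a change in total RNA per cell is not visible.

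The log2 of each signal was taken with nothing added. Of 31042 probe sets that are not controls, the 18625 whose mean log2 signal exceeded the 40th percentile (8.00, a signal of 255) were tested in 1 limma fit (version 3.58.1, R 4.3.3) of all 30 arrays, with a mean per group, a variance trend with intensity, and Benjamini-Hochberg adjustment within each of 9 comparisons. The fit was tested on simulated data. Each gene's brightest probe set stands for it, and 436 probe sets with several symbols and 9780 with none were not named. Other lists name up to 4 genes, those with the largest 1000 uM effect among genes that passed. The members and lists were chosen with earlier results of these data known. Cell type markers were listed in the same way. The alternatives were other filters, an offset of 100, 3 other scalings, no trend, array weights, only the groups compared, the mean of a gene's probe sets, leaving out each array, and, added after seeing the data, the set of running numbers in the titles as a block. The number of arrays limits the precision. Promoters are RefSeq sequences of GRCr8, 1 matching window is not reported here, and no build of the array was used.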

Additional observations from a re-analysis of the deposited data

Results flagged for a closer look

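The effect of 1000 uM clofibrate differed between the times in 7 of the 10 synthetases by a test of the difference itself (limma, 48 h minus 24 h, log2): Sars1 (-0.76), Yars1 (-0.72), Gars1 (-0.64), Mars1 (-0.56), Aars1 (-0.55), Lars1 (-0.52) and Nars1 (-0.42).

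In 4 of 60 sets of 5 arrays, 1 array lay far from the other 4 by Dixon's criterion, with a gap over 0.71 of the range, where chance gives about 1 in 20. With 1000 uM at 48 h, replicate 5 was lowest for Mars1 (4548, the others 5407 to 5672) and for Wars1 (1401, the others 1502 to 1535). With 1000 uM at 24 h, replicate 3 was highest for Sars1 (8022, the others 6581 to 6833). With 60 uM at 24 h, replicate 5 was lowest for Wars1 (1694, the others 1996 to 2094).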

How the results depend on the processing

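The number of members that passed moved by over 1.5 times under these settings. For 60 uM at 48 h it was 4, against 0 with spike-in scaling and 2 with only the groups compared. For 1000 uM at 48 h it was 9, against 5 with spike-in scaling. For 1000 uM against 60 uM at 24 h it was 3, against 5 with the 60th percentile filter, with array weights and with only the groups compared, and 2 to 5 with 1 array left out (5 without replicate 2 of 60 uM at 24 h). For 1000 uM against 60 uM at 48 h it was 5, against 3 with median centring, 0 with spike-in scaling, 3 with the mean of a gene's probe sets, and 3 to 6 with 1 array left out (3 without replicate 1 of 60 uM at 48 h). For DMSO at 48 h against 24 h it was 1, against 0 with spike-in scaling, array weights or only the groups compared, and 0 to 3 with 1 array left out. The time difference at 1000 uM passed in 7 genes under each setting, the block included, but the mean of a gene's probe sets, where Eprs1 joined (-0.49, limma adjusted p = 0.0437), and in 7 of 10 without each of 20 arrays. Without replicate 1 of DMSO at 48 h, 9 genes passed for 1000 uM and 4 for 60 uM at 48 h. With the mean of its probe sets Wars1 turned to 0.07 in 1000 uM against 60 uM at 48 h and had -0.09 (limma adjusted p = 0.330) in 1000 uM against DMSO at 48 h; its 2 probe sets differ in direction. The 24 h call of Mars1 also ended with no filter (limma adjusted p = 0.0576), quantile normalization (0.0514), no trend (0.0577) and the mean of its probe sets (0.0826), and that of Sars1 with no filter (0.0608), no trend (0.0587) and only the groups compared (0.0677). At 48 h with 1000 uM Eprs1 passed with the 60th percentile filter (limma adjusted p = 0.0408) and quantile normalization (0.0335). It also passed with the mean of its probe sets (-0.31, 0.0218), and had -0.03 with spike-in scaling. A value that passed under neither setting was compared by its size alone. Over all probe sets 60 uM at 24 h gave 638 higher and 584 lower as deposited, 818 and 375 with median centring and 793 and 76 with the spike-ins. The same counts for 1000 uM against 60 uM at 48 h were 1869 and 2850, 2395 and 2033, and 2307 and 935. Spike-in scaling rests on 24 probe sets whose mean varied by an SD of 0.138 (log2) between arrays. The cause of these changes was not tested. The array titles end in running numbers that cycle through the 6 groups, and the labels do not say what they mark. With the 5 sets of 6 as a replicate block, an alternative chosen after seeing the data, 5 genes passed for 1000 uM against 60 uM at 24 h and 6 at 48 h, with Nars1, Tars1 (24 h) and Aars1 (48 h) added, and no other call changed. Deviations from the group means correlated at -0.0505 to 0.109 within a set (median 0.00561) and -0.0795 to 0.0881 between sets (median -0.00266). Of 30 arrays 11 correlated best with their own set, where each had 5 sets to match and 1 in 5 would do so by chance. Whether the arrays of a set share some variation was not tested, and the main fit holds no block.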
